A study of Homo sapiens with 6 samples.

Results

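The sites described here are TRIM24 peaks that were called in LNCaP-abl cells without added androgen and in LNCaP cells under dihydrotestosterone (DHT), but not in LNCaP cells under vehicle. They were chosen by overlap alone, as LNCaP-abl peaks that share at least 1 bp with a DHT peak and none with a vehicle peak. The rule found 1281 of the 20621 LNCaP-abl peaks, or 6.21% of that list (95% exact confidence interval 5.89 to 6.55). TRIM24 binding was measured by chromatin immunoprecipitation and sequencing in 3 conditions with 1 library each. LNCaP cells were kept for 72 h in medium with charcoal-stripped serum and then received ethanol vehicle or 10 nM DHT for 4 h. LNCaP-abl cells were always grown in stripped serum and received ethanol vehicle for 4 h. No condition has a replicate, the DHT and vehicle lists come from the same LNCaP line, and peak numbers and scores grow with sequencing depth, which the lists do not give. All values below are therefore descriptions of these 3 lists, with no test between conditions, and every interval covers counting error only.

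TRIM24 is a chromatin reader whose PHD finger and bromodomain recognise histone H3 tails, and it acts as a coregulator of nuclear receptors. The androgen receptor is such a receptor: on binding DHT, it moves into the nucleus and occupies response elements in chromatin together with coregulators. LNCaP is a human prostate cancer line that needs androgen to grow, and LNCaP-abl was derived from it by long culture without androgen, so that it models castration-resistant growth while still carrying the androgen receptor. A site seen under DHT in the parent and without DHT in the derivative is thus one at which TRIM24 was called in an androgen-exposed state of the first line and in the androgen-free state of the second. Positions are in hg19. Gene names and sequences at the sites were not used here, because they need annotation and sequence of that build.

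The sites made up a small part of what LNCaP-abl held beyond the vehicle list. Of the 13200 LNCaP-abl peaks without a vehicle peak, 9.70% had a DHT peak (9.20 to 10.2). The mirror class, LNCaP-abl peaks with a vehicle peak and no DHT peak, was larger, with 3048 peaks or 20.4% of the 14967 LNCaP-abl peaks without a DHT peak (19.7 to 21.0). Seen from the DHT side, 5654 LNCaP-abl peaks or 27.4% of the list had a DHT peak, and 22.7% of these (21.6 to 23.8) lacked a vehicle peak. The vehicle list was the longer of the LNCaP lists, with 9744 peaks against 7105. When all 3 lists were limited to 7105 peaks by score, DHT-side sites numbered 918 and mirror sites 1176, so the ratio of the mirror class to the DHT-side class went from 2.38 to 1.28. The DHT-side class stayed the smaller in this setting, and only 564 of its 918 members were among the 1281 sites.

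In LNCaP-abl the sites were of middle to high rank. Their LNCaP-abl scores, the authors' own −log10 values of significance per peak, had a median of 43.1 and ran from 2.30 to 245. The middle 50% lay between 19.1 and 74.8. This median stood at percentile 62.0 of the LNCaP-abl list, and 869 sites (67.8%, 65.2 to 70.4) had a score above percentile 50 of that list. The median score was 52.6 for the mirror class, 96.8 for LNCaP-abl peaks with both LNCaP peaks and 12.3 for LNCaP-abl peaks with neither. The sites thus lay between the peaks held by LNCaP-abl alone and those of all 3 lists, and below the mirror class. A further 158 sites (12.3%) had a LNCaP-abl score under 10.

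In the DHT list the same sites were of low rank. Their DHT scores, taken from the best DHT peak at each site, had a median of 5.74 and ran from 2.14 to 34.3. The middle 50% lay between 4.64 and 7.31. The median stood at percentile 36.2 of the DHT list, and 409 sites (31.9%, 29.4 to 34.6) had a DHT score above percentile 50. At LNCaP-abl peaks held by all 3 lists the best DHT score had a median of 7.84, and 60.4% were above percentile 50 of the DHT list. The mirror class was also low in its own LNCaP list, with a median vehicle score of 5.86 at percentile 40.9 of the vehicle list. Low scores lie near the point where a peak stops being called, so absence of a vehicle peak at these sites says that no peak was called there and not that TRIM24 was absent.

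The share of each list that fell at the sites followed this pattern. Among DHT peaks it was 26.2% (22.997 to 29.6) in score decile 1, the lowest, and 24.5% in decile 5. It then fell in steps to 1.97% (1.08 to 3.28) in decile 10, where 14 of 711 DHT peaks lay at such a site. Among LNCaP-abl peaks it rose from 2.23% (1.64 to 2.96) in decile 1 to 10.5% (9.19 to 11.9) in decile 8 and fell to 4.46% (3.61 to 5.44) in decile 10. The fall at the top came with more vehicle peaks: of the 1751 LNCaP-abl peaks of decile 10 with a DHT peak, 1659 also had a vehicle peak and 92 (5.25%, 4.26 to 6.41) did not. In decile 1, 46 of 85 LNCaP-abl peaks with a DHT peak (54.1%, 42.96 to 64.98) lacked a vehicle peak. The rise and fall over the LNCaP-abl deciles was not particular to the sites. The mirror class made up 3.44% of LNCaP-abl peaks in decile 1, 29.0% in decile 8 and 11.2% in decile 10. Among LNCaP-abl peaks with a peak in just one of the LNCaP lists, the part held by DHT was 39.3% (30.4 to 48.8) in decile 1 and 28.4% (23.5 to 33.6) in decile 10.

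**Figure D1:**
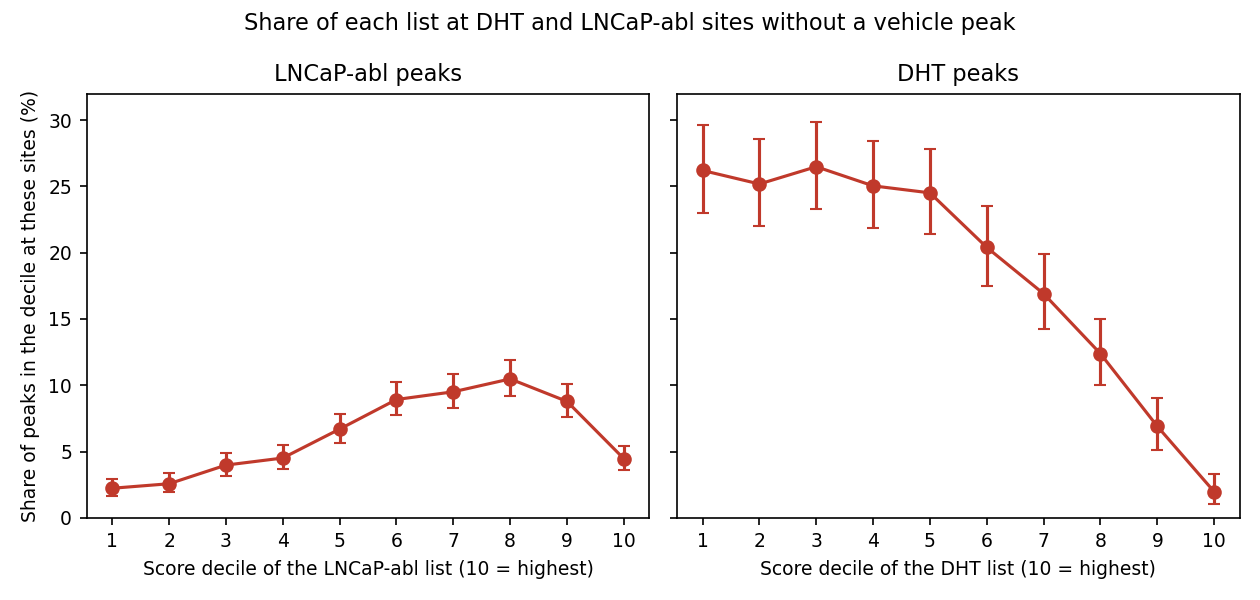
Share of LNCaP-abl peaks (left) and of DHT peaks (right) that lie at DHT and LNCaP-abl sites without a vehicle peak, in percent, by score decile of the list; bars are exact 95% intervals for counting error. The left share peaks at 10.5% in decile 8, and the right share falls from 26.2% in decile 1 to 1.97% in decile 10.

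The order of the sites in one list told little of their order in the other. Across the 1281 sites, LNCaP-abl and DHT scores had a Spearman rho of 0.09, against 0.28 across the 4373 LNCaP-abl peaks of all 3 lists and 0.24 between LNCaP-abl and vehicle scores across the mirror class. The score range at the sites is narrow in the DHT list, and the points of each class share the same libraries. Only 32 sites (2.50%) were above percentile 75 in both lists, against 1120 (25.6%) of the peaks of all 3 lists. These counts follow the low DHT ranks of the class as a whole, in which 385 sites were above percentile 75 in LNCaP-abl and 94 were above it under DHT. Of the 385, 229 sites (17.9% of all) were at or below percentile 50 under DHT. Of the 94, 36 sites (2.81% of all) were at or below percentile 50 in LNCaP-abl. A further 285 sites (22.2%) were at or below percentile 50 in both lists, and 282 (22.0%) were above it in both.

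**Figure D2:**
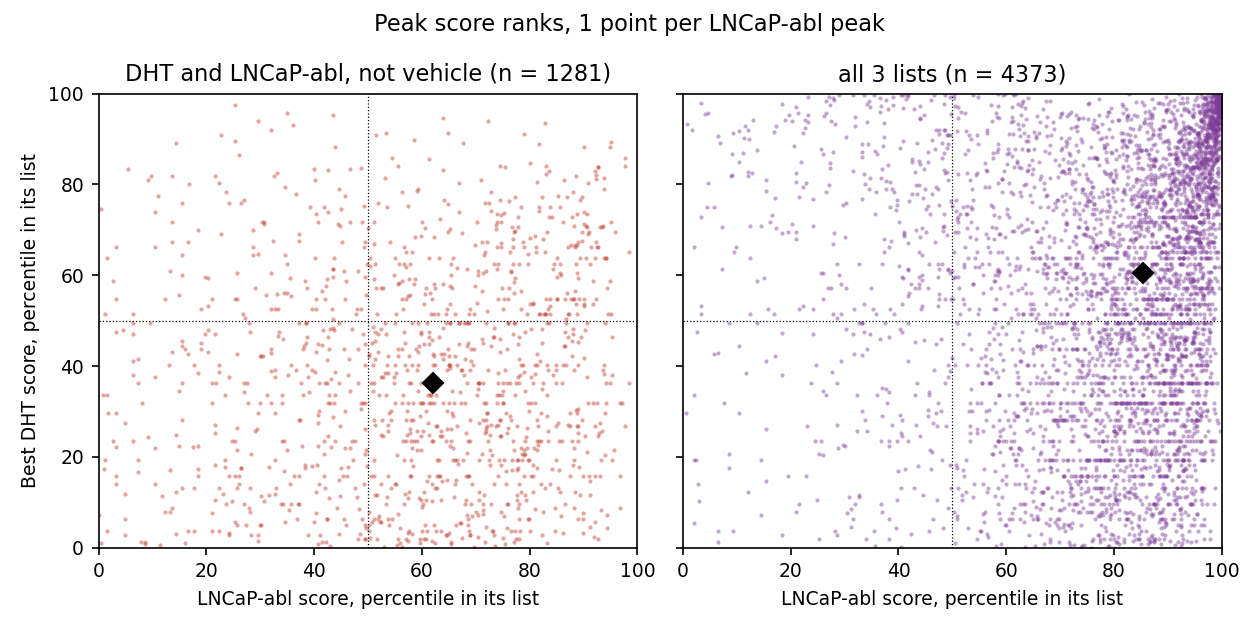
Percentile of the best DHT score in the DHT list against percentile of the LNCaP-abl score in the LNCaP-abl list, 1 point per LNCaP-abl peak, for the 1281 sites (left) and the 4373 peaks of all 3 lists (right); diamonds mark medians and dotted lines percentile 50. The sites centre on percentiles 62.0 and 36.2, and the peaks of all 3 lists crowd towards the upper right corner.

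The sites that ranked high in both lists were few. Ranked by the lower of the 2 percentiles, the first was chr1:89458030-89458726, with a score of 154 in LNCaP-abl (percentile 95.0) and 15.9 under DHT (percentile 89.4). Its nearest vehicle peak lay 100699 bp away, but another LNCaP-abl peak lay 52 bp away. Next came chr2:220143873-220144567, with scores of 151 and 14.8, and chr5:107007821-107008630, with 117 and 14.8. The second of these was remote from the vehicle list, with 707961 bp to its nearest vehicle peak, but another LNCaP-abl peak lay 275 bp from it. A site on the short arm of chromosome 6, chr6:16761628-16762322, scored 208 and 13.4, but a vehicle peak lay 585 bp from it and another LNCaP-abl peak 144 bp from it. The site chr17:65821149-65822313 scored 209.5 and 12.5, and it lay 107030 bp from a vehicle peak and 106986 bp from another LNCaP-abl peak, so it had no close neighbour in either list.

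The remaining 5 of the 10 leading sites had DHT scores close to one another. They were chr12:51663393-51664368 with scores of 133 in LNCaP-abl and 12.4 under DHT, chr6:32938488-32938952 with 133 and 12.3, and chr17:7218239-7219070 with 88.9 and 12.5. The last were chr1:43282449-43283218 with 90.9 and 12.1, and chr19:1111995-1112950 with 130 and 12.1. Vehicle peaks lay 528 bp from the chromosome 6 site and 3441 bp from the chromosome 19 site, and at least 36261 bp from the other 3. Another LNCaP-abl peak lay 147 bp from the chromosome 17 site, 340 bp from the chromosome 19 site and 363 bp from the chromosome 6 site. In all 10 leading sites the DHT peak lay wholly inside the LNCaP-abl peak.

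The 5 highest LNCaP-abl scores and the 5 highest DHT scores fell on different sites. So few of 1281 sites would seldom coincide even if the scores were unrelated, so this alone says nothing of the class. By LNCaP-abl score the leaders were chr15:83735283-83736337, with 245 in LNCaP-abl and 5.74 under DHT, and chr17:3748955-3749849, with 235 and 8.27. The fifth, chr17:4692863-4693875, had 207 and 5.18, and the DHT percentiles of these 3 sites were 36.2, 65.1 and 26.7. The third and the fourth by LNCaP-abl score were the chr17:65821149-65822313 and chr6:16761628-16762322 sites above, at DHT percentiles 84.0 and 85.9, so 3 of the 5 were above percentile 50 under DHT. By DHT score the leader was chr19:7627810-7628061, with 34.3 under DHT (percentile 97.4) and 9.46 in LNCaP-abl (percentile 25.2). It was followed by chr10:124671434-124671718 with 26.3 and 13.6, chr2:220196329-220196711 with 24.95 and 19.6, chr1:32859582-32860469 with 23.1 and 46.4, and chr14:106267607-106267819 with 21.4 and 10.9. All but the chromosome 1 site were below percentile 50 in LNCaP-abl. At those same 4 sites the LNCaP-abl peak was narrower than the DHT peak and lay inside it, for example 252 bp against 502 bp at the leading site.

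Sets of 20 leading sites were too small to settle whether the ranks of these few stood for a wider order of the scores. Among the 20 sites with the highest DHT scores, 9 (45%, 23.1 to 68.5) were at or below percentile 50 in LNCaP-abl, against 412 (32.2%) of all 1281 sites. Among the 20 with the highest LNCaP-abl scores, 11 (55%, 31.5 to 76.9) were at or below percentile 50 under DHT, against 872 (68.1%) of all sites. The widths in these sets cannot be read apart from how the sets were picked. The sets include the leading sites already named. LNCaP-abl width also rose with LNCaP-abl score across the sites, with a Spearman rho of 0.69. The LNCaP-abl peak was narrower than its DHT peak at 11 (55%, 31.5 to 76.9) of the 20 highest DHT scores. Among the 20 highest LNCaP-abl scores this was so at 0. Over all 1281 sites the LNCaP-abl peak was narrower at 109 (8.51%, 7.04 to 10.2).

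Most sites consisted of a short DHT peak inside a broad LNCaP-abl peak. The LNCaP-abl peaks had a median width of 669 bp and their best DHT peaks 250 bp, and the LNCaP-abl peak was the wider by a median factor of 2.41. The DHT peak lay wholly inside at 925 sites (72.2%, 69.7 to 74.6), and the reverse was found at 32 (2.50%). The DHT midpoint fell inside the LNCaP-abl peak at 1219 sites (95.2%), and the 2 midpoints lay a median of 93.5 bp apart. At 244 sites (19.0%) the best DHT peak had the minimum width of 200 bp, against 8.28% of the LNCaP-abl peaks of all 3 lists. This share was not counted for the mirror class or for the whole DHT list. The lower quartile of width was 208 bp for the best DHT peak at the sites and 214 bp for the best vehicle peak in the mirror class. It was 251 bp for the best DHT peak at LNCaP-abl peaks of all 3 lists. Short best peaks were thus shared with the mirror class. The gap in width was not particular to the sites. Over the whole lists the median width was 528 bp in LNCaP-abl and 296 bp under DHT. In the mirror class it was 774 bp in LNCaP-abl and 266 bp for the best vehicle peak. At LNCaP-abl peaks of all 3 lists it was 1000 bp in LNCaP-abl and 344 bp for the best DHT peak. LNCaP-abl alone had a median of 354 bp. How often one peak lay inside the other was counted for the sites only. LNCaP-abl width and score rose together across the sites, with a Spearman rho of 0.69.

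**Figure D3:**
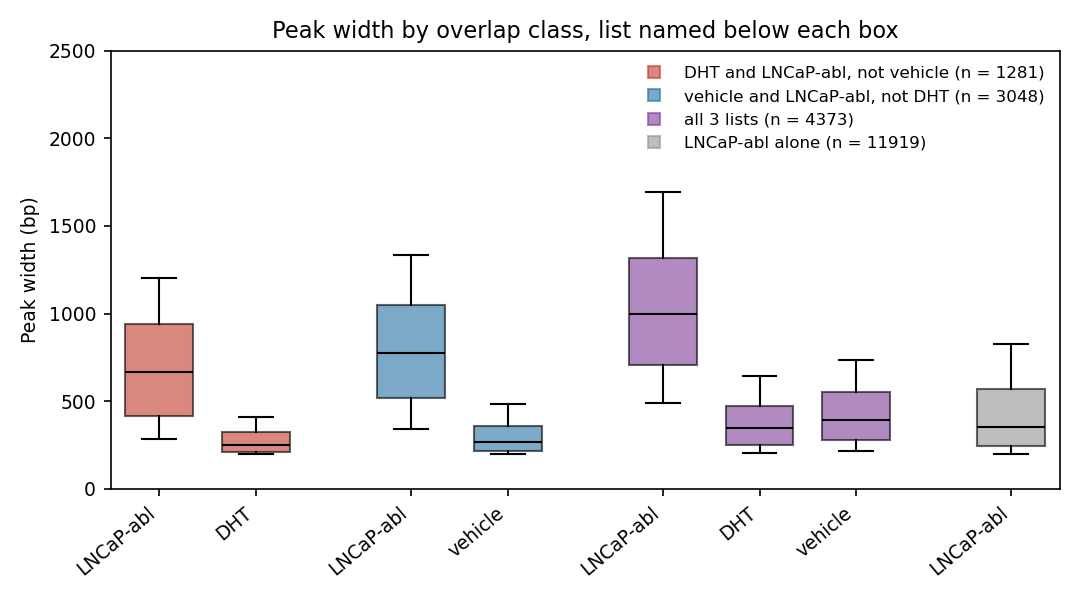
Peak width in bp for each overlap class of LNCaP-abl peaks, with the list named under each box; boxes span the middle 50% with the median as a line, and whiskers run from the 10th to the 90th percentile. The sites without a vehicle peak have a median width of 669 bp in the LNCaP-abl list, and their DHT peaks one of 250 bp.

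The widest sites had modest DHT peaks. The widest was chr6:7107361-7109922, at 2562 bp, with scores of 59.3 in LNCaP-abl and 5.74 under DHT. The others were chr8:101732955-101735241 at 2287 bp, chr3:66023582-66025547 at 1966 bp, chr7:30323801-30325725 at 1925 bp and chr2:134877310-134879209 at 1900 bp. Their DHT peaks were between 200 and 410 bp wide and none of the 5 exceeded percentile 45.1 of the DHT list. All 5 lay at least 160905 bp from a vehicle peak.

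Nearly every site rested on a single DHT peak. There was 1 DHT peak at 1236 sites, 2 at 44 and 3 at 1. In all 1321 distinct DHT peaks took part, 18.6% of the DHT list, and 6 of them reached across more than one site. The rule looks at the whole LNCaP-abl peak, which matters where that peak is broad. Of the 1816 DHT peaks with a LNCaP-abl peak and without a vehicle peak, 1312 (72.2%, 70.1 to 74.3) lay at one of the sites. The other 504 (27.8%, 25.7 to 29.9) lay in LNCaP-abl peaks that touched a vehicle peak elsewhere along their length. Those 477 LNCaP-abl peaks had a median width of 1309 bp. In the other direction, 9 sites had a DHT peak that reached past the LNCaP-abl peak into a vehicle peak.

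Most sites were far from any vehicle peak. The nearest lay a median of 54365 bp away (middle 50%, 14486 to 142916 bp). A vehicle peak lay less than 1 kb away at 91 sites (7.10%, 5.76 to 8.65), less than 10 kb away at 265 (20.7%, 18.5 to 23.01) and less than 100 kb away at 849 (66.3%). For LNCaP-abl peaks in neither LNCaP list these shares were 8.47%, 23.3% and 67.6%, and the median distance was 46819 bp. For the mirror class, measured to the nearest DHT peak, they were 5.22%, 16.0% and 60.5%, with a median of 68177 bp, and the DHT list is the shorter of the LNCaP lists. A LNCaP-abl neighbour less than 1 kb away was present at 258 sites (20.1%), and 87 of these 258 (33.7%) had such a neighbour that held a vehicle peak. Both counts were made for the sites only, and 36.0% of all LNCaP-abl peaks had a vehicle peak. The middle 50% of distances to the nearest other LNCaP-abl peak began at 2301 bp for the sites and 1754 bp for the mirror class. It began at 3812 bp for all 3 lists and 733.5 bp for LNCaP-abl alone. The subset with no vehicle peak less than 10 kb away and with both scores above percentile 50 numbered 236 sites (18.4%, 16.3 to 20.7).

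**Figure D4:**
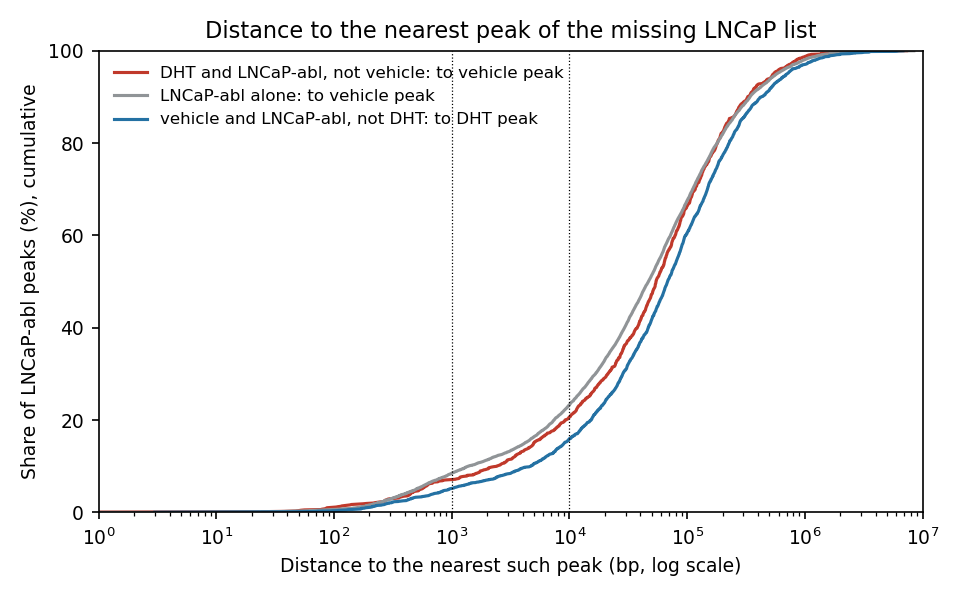
Cumulative share of LNCaP-abl peaks, in percent, against the distance in bp (log scale) to the nearest vehicle peak for the sites and for LNCaP-abl peaks in neither LNCaP list, and to the nearest DHT peak for the mirror class; dotted lines mark 1 kb and 10 kb. Of the sites, 7.10% lie left of 1 kb and 20.7% left of 10 kb.

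The borders of the class were drawn by a few base pairs at some sites. Just outside the vehicle criterion, chr14:101053290-101053556 had a vehicle peak 1 bp away, chr22:42310630-42311297 one 23 bp away and chr14:39639259-39639507 one 38 bp away. At chr12:1639641-1639970 and chr14:20810846-20811068 the gaps were 47 and 50 bp. The LNCaP-abl scores of these 5 ran from 3.92 to 15.1. Just inside the DHT criterion, the smallest overlaps were 6 bp at chr19:49322777-49323109, 7 bp at chr14:69950496-69950695 and 10 bp at chr11:2465883-2466168. They were followed by 11 bp at the chr14:20810846-20811068 site already named and 12 bp at chr12:133353782-133354026. An overlap under 50 bp was found at 15 sites (1.17%). Of the LNCaP-abl peaks kept out by their vehicle peak, chr11:82444609-82444961 shared 4 bp with it and chr22:42310118-42310401 shared 18 bp. The others were chr5:179780007-179780832 and chr7:16793077-16793930, with 22 bp each, and chr1:82266964-82267507, with 25 bp. One DHT peak, chr22:42310359-42310652, touched both a site and an excluded LNCaP-abl peak, so LNCaP-abl peaks only 228 bp apart fell on either side of the rule.

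The sites were spread over the genome much as the LNCaP-abl list was. Of the sites, 1279 lay on chromosomes 1 to 22 and X, and the rest on chrM, chrY or unplaced sequences. Across chromosomes 1 to 22 and X, the share of LNCaP-abl peaks that were sites was lowest on chromosome 22, at 4.12% (24 of 582, 2.66 to 6.07). That share was highest on chromosome 6, at 7.16% (72 of 1006, 5.64 to 8.93). The interval of chromosome 22 ended below the overall 6.21%, and those of the other 22 chromosomes included it. Chromosome 1 held the most sites, with 135, followed by chromosome 17 with 95, chromosome 2 with 88 and chromosome 19 with 86. Among LNCaP-abl peaks with a DHT peak, the part without a vehicle peak was 36.4% on chromosome X (24 of 66, 24.9 to 49.1), 28.7% on chromosome 6 (23.2 to 34.7) and 28.2% on chromosome 17 (23.4 to 33.3), against 22.7% overall. It was lowest on chromosome 21, at 17.8% (13 of 73, 9.84 to 28.5). No adjustment was made for looking at 23 chromosomes.

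**Figure D5:**
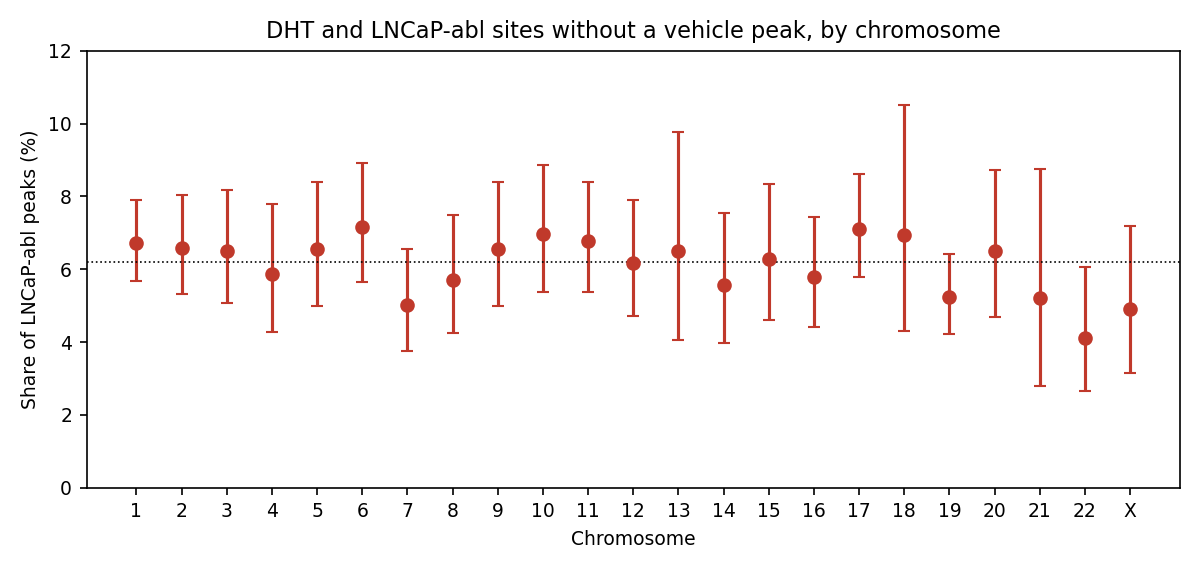
Share of LNCaP-abl peaks on each chromosome that are DHT and LNCaP-abl sites without a vehicle peak, in percent, with exact 95% intervals for counting error; the dotted line is the 6.21% of the whole list. Points run from 4.12% on chromosome 22 to 7.16% on chromosome 6.

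Most sites lay at least 100 kb from any other site, though most shared a 1 Mb window with another. Runs, windows and the spacing between sites were summarised for the sites only, so no tendency to lie apart or together can be read from them. The nearest other site lay a median of 396590 bp away, and 290 sites (22.6%) lay in 130 runs in which neighbours were less than 100 kb apart. Runs of at least 3 numbered 18 and held 66 sites (5.15%). Of 2414 windows of 1 Mb with a LNCaP-abl peak, 843 held a site and 548 of these held exactly 1. Thus 548 of the 1281 sites were alone in their window. At 517 sites (40.4%) another LNCaP-abl peak lay less than 10 kb away. This share was 42.9% for the mirror class, 36.2% for all 3 lists and 48.7% for LNCaP-abl alone. At the 517 sites the nearest such peak belonged to LNCaP-abl alone in 305 cases (59.0%, 54.6 to 63.3). It belonged to the same class in 40 (7.74%, 5.58 to 10.4). In the other classes, in the same order, it belonged to LNCaP-abl alone in 59.8%, 61.2% and 65.7% of cases. LNCaP-abl alone makes up 11919 of the 20621 LNCaP-abl peaks. For the mirror class the neighbour was one of the sites in 6.12% of cases, for all 3 lists in 5.43% and for LNCaP-abl alone in 5.01%, which is near the 6.21% of the whole list.

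The runs described next were chosen after their values were seen. Among the 6 runs of 4 or more sites, the highest proportion of sites was in chr1:61508547-61545883, where 4 of 5 LNCaP-abl peaks within 37337 bp were sites and no vehicle peak lay between. Their LNCaP-abl scores were 17.8, 18.1, 22.7 and 6.38, and their DHT scores 2.95, 4.41, 6.72 and 7.11, so none of the 4 was above percentile 50 in LNCaP-abl. On chromosome 11, chr11:63953508-64014522 held 5 sites among 8 LNCaP-abl peaks and no vehicle peak. Their LNCaP-abl scores from left to right were 89.2, 77.6, 32.04, 11.03 and 50.6, and a single DHT peak with a score of 6.13 served the last pair. A vehicle peak lay 390 bp outside its left end. The window into which it reaches, chromosome 11 from 64 to 65 Mb, held the most sites of any window, with 8 among 54 LNCaP-abl peaks.

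On chromosome 2, chr2:220042702-220196711 held 5 sites among 12 LNCaP-abl peaks and 1 vehicle peak. It includes 2 of the leading sites named above, and its LNCaP-abl scores were 145, 60.9, 52.6, 151 and 19.6 against DHT scores of 8.12, 6.53, 3.03, 14.8 and 24.95. LNCaP-abl and DHT scores were thus ordered differently within the run, with the highest DHT score at the site of lowest LNCaP-abl score. Chromosome 2 from 220 to 221 Mb held 7 sites against 2 peaks of the mirror class, 8 DHT peaks and 3 vehicle peaks. The longest run by number, chr17:8028817-8152733, held 6 sites among 18 LNCaP-abl peaks, but 5 vehicle peaks lay between its ends, and a single DHT peak served its first pair. The remaining runs of 5, chr19:1111995-1270008 and chr22:50608034-50782046, lay in peak-rich stretches with 39 and 26 LNCaP-abl peaks and 9 and 11 vehicle peaks.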

How the data were processed

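The data are 3 TRIM24 peak lists in hg19, 1 library per condition, and 3 input libraries were not analysed here. FastQC 0.10.0, Bowtie 0.12.7 and MACS2 2.0 are named in the submitters' processing notes. For the control, the read filters and the cutoff nothing is stated (not given in the sources used here). Column 5 of the deposited lists holds −log10 significance values from MACS2. Whether they derive from p or q is not stated, and the depth is unknown.

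Overlaps were computed with Python 3.11.15 (numpy 2.4.6, pandas 2.3.3, scipy 1.17.1) and gave the same peaks as bedtools 2.31.1. On simulated lists 4059 of 4059 planted overlaps were found. Where several DHT peaks overlapped a site, the highest-scoring one was used. Percentiles and deciles were formed within each list. Shares carry exact Clopper-Pearson 95% intervals that treat peaks as independent. Figures were drawn with matplotlib 3.10.9. Starts are printed counting from 1.

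The sites, comparisons and alternatives were chosen with earlier results of these data known. Named sites follow a rule: the 10 highest by the lower percentile, 5 each by LNCaP-abl score, DHT score and width, and 5 at each border of the class. Runs and windows were picked after their values were seen. Gene starts, gene lists and motifs had been planned and were not run, since they need hg19 annotation or sequence.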

Additional observations from a re-analysis of the deposited data

How the results depend on the processing

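No paired analysis was possible because there was a single library per condition, which also left no library to leave out. Of 11 alternatives, 7 were planned, and 4 were chosen after seeing the data: the DHT midpoint inside the LNCaP-abl peak, no vehicle peak less than 10 kb away, no vehicle peak at the DHT peaks either, and joining peaks less than 1 kb apart. The number of sites stayed within 1.5 times of 1281 in 8 of them. A required reciprocal overlap of 50% or more left 795, of which 415 were among the 1281. The number fell to 732 in the better-scoring 50% of each list, of which 289 were, and to 440 with DHT peaks at or above the median DHT score. The share of LNCaP-abl peaks without a vehicle peak that had a DHT peak was 4.40%, 11.2% and 3.33% in these settings, 33.1% in lists of 7105 peaks and 10.9% with peaks joined. Lists of equal length hold 7105 in place of 20621 LNCaP-abl peaks, which makes that share one of fewer peaks. The median LNCaP-abl score was 80.6 in the better-scoring 50%, 81.7 in lists of equal length, 49.6 with the higher DHT scores and 46.5 with no vehicle peak less than 10 kb away. The median DHT score was 8.35, 5.95 and 8.12 in the first 3 of these and 7.11 with the reciprocal overlap. The median LNCaP-abl width was 554 bp with the reciprocal overlap, 400 bp where all peaks were set to that width, 936.5 bp in the better-scoring 50% and 956 bp in lists of equal length. It was 699.5 bp with no vehicle peak less than 10 kb away and 746 bp with peaks joined. Sites with a vehicle peak less than 1 kb away numbered 415 with the reciprocal overlap, which readmits peaks that touch a vehicle peak, 205 with peaks of 400 bp, 16 in the better-scoring 50%, 26 in lists of equal length, 27 with the higher DHT scores and 15 with peaks joined. They numbered 0 where such peaks were removed by the rule, at 1 kb and at 10 kb. The alternatives for gene starts and motifs were not run. For the changes given without a reason, the cause was not tested. The unknown depth limits any reading of an absent vehicle peak, most of all at the low DHT scores that most sites have.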
